A study of Mus musculus with 7 samples.

Results

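The miR-200 family and miR-205 were described in 7 small RNA libraries of mouse testis. Members were all rows of the table whose mature name began with miR-200a, miR-200b, miR-200c, miR-141, miR-429 or miR-205, and 5 of the 331 listed miRNAs met this rule: miR-429-3p, miR-200b-3p, miR-200a-3p, mmu-miR-141-3p and mmu-miR-205-5p. Both arms of miR-200c, the 5p arms of the other miR-200 hairpins and miR-205-3p were not analysed here. The mmu- prefix, for mouse, is left out below.

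Every library came from the testis of outbred CD1 mice, and the labels name no genetic modification. T6 and T10 were uncultured testes of 6.5 and 10.5 dpp (days post-partum) mice, given as 6 and 10 days in another field of the labels, and TAD was uncultured testis of a 2-month-old adult. T6-12K and T6-12A were explants taken at 6.5 dpp and cultured for 12 days with KSR (a commercial serum replacement) or AlbuMAX I (a lipid-rich bovine serum albumin), and T10-12K and T10-12A were the same cultures started at 10.5 dpp. Explants lay on agarose where medium and air meet, at 34 °C with 5% CO2. The culture comparison asked how small RNAs of explants compared with those of testes before culture and of the adult. RNA isolation used 2 testis explants for each analysis, and the sources used here do not repeat this number for each library. Each condition was 1 library, so no difference between conditions could be tested against variation between animals or explants, and the intervals below are 95% exact intervals for counting error only. A library holds all cells of the tissue, in which fewer cells of a type and less RNA per cell cannot be told apart.

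The miR-200 family acts in epithelial cells, where its members repress the mRNAs of ZEB1 and ZEB2, the transcriptional repressors of E-cadherin, and so help to keep cells in an epithelial state. ZEB1 and ZEB2 in turn repress the miR-200 genes. miR-205 shares the ZEB targets without sharing the miR-200 seed and is abundant in stratified and basal epithelia such as skin. In the testis, Sertoli cells form the seminiferous epithelium in which germ cells develop.

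A miRNA recognises its targets mainly through the seed, bases 2 to 8 from the 5′ end, and the mature sequences are shown to set apart the 3 seeds of the group. They were read from RefSeq (GRCm38.p6), 5′ to 3′, with the seed in capitals.
miR-429-3p: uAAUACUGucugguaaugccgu
miR-200b-3p: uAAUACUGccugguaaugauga
miR-200a-3p: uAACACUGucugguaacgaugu
miR-141-3p: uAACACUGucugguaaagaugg
miR-205-5p: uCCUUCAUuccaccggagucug

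All 5 were 22 bases long. miR-429-3p and miR-200b-3p shared the seed AAUACUG, and miR-200a-3p and miR-141-3p shared AACACUG. Of the 288 listed miRNAs matched to a RefSeq sequence, no others held either seed, and CCUUCAU was held by miR-205-5p alone. Within the seeds the classes differ at 1 base, U4C from miR-429-3p to miR-200a-3p, with positions counted from 1 at the 5′ end. Between miR-200a-3p and miR-141-3p the substitutions were C17A and U22G, both outside the seed. Between miR-429-3p and miR-200b-3p they were U9C, C19A, C20U and U22A. How the authors counted a read that fits more than 1 of these sequences is not given in the sources used here, and reads of miR-200a-3p and miR-141-3p, which differ at 2 of 22 bases, may have been exchanged in part.

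The 5 miRNAs come from 3 loci, all on the minus strand. Mir429 lies at chr4:156053905-156053987, in an exon of the processed transcript Gm13648 and an intron of Ttll10. Mir200a lies at chr4:156054896-156054985 and Mir200b at chr4:156055681-156055750, both in introns of Gm13648 and of Ttll10. The hairpins of this cluster are separated by 908 bases between Mir429 and Mir200a and by 695 bases between Mir200a and Mir200b. Mir141 lies at chr6:124717914-124717985 in an intron of the antisense transcript Gm15884, 336 bases from Mir200c. Mir205 lies at chr1:193507463-193507530 in an exon of the lincRNA 4631405K08Rik. Shared seeds and shared loci therefore cut across each other, since miR-200a-3p has the seed of miR-141-3p and the locus of miR-429-3p.

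Reads on listed miRNAs ranged from 1628770 in TAD to 13397407 in T10, and levels are given as CPM, the reads of a miRNA over these, times 1000000. Median-of-ratios and trimmed-mean scaling, which set the middle of the miRNAs equal between libraries, and reads taken directly, with no scaling, are named where they turn a result. No value between 0 and 5 reads was listed, so a value at 0 may hide up to 4 reads. The worth of 5 reads, used as the level below which a value at 0 lies, was 0.374 CPM in T6 and 3.07 CPM in TAD, the shallowest library. In T6-12K, 107 of 331 miRNAs (32.3%) had their lowest CPM of the 7 libraries, and none of the 5 members was among them. This count depended on the scaling. It was 80 (24.2%) without miR-10b-5p in the totals and 55 (16.6%) in the values as deposited. By median-of-ratios or trimmed-mean scaling it was 46 (13.9%), and with reads taken directly 37 (11.2%). The same count was not made for the other libraries. As a check of the labelled tissue, 11 miRNAs of gonad and germ cells summed to 18273 CPM in T6-12K and to between 47233 and 146891 CPM in the other 6 libraries. None of the 11 was at 0 in any library, and 8 had their lowest level in T6-12K in CPM, against 6 with reads taken directly and 7 under the other scalings. This list counts miR-34c-5p and miR-449a-5p, which mark later germ cells, and both were lower in T6 and T10 than in T6-12K. Results that rest on T6-12K are given with and without it.

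miR-141-3p was high in 1 library. In uncultured testis it had 57 reads in T6 (4.27 CPM), 70 in T10 (5.22 CPM) and 25 in TAD (15.3 CPM). In the cultures it had 1248 reads in T6-12K (126 CPM), 31 in T10-12K (4.38 CPM), 32 in T6-12A (2.96 CPM) and 0 in T10-12A. T6-12K was 8.18-fold above TAD, the next highest library (5.52 to 12.7). TAD was in turn 2.94-fold above T10 (1.78 to 4.70). From T10 through T10-12K and T6 to T6-12A no pair of neighbours differed beyond counting error, and T10 and T6-12A were not compared. T10-12A, at 0, was at least 5.01-fold lower than T6-12A. Without T6-12K, its highest level was 15.3 CPM.

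miR-205-5p was the lowest of the 5 in all libraries but T6-12K and T10-12A and was also high only in T6-12K. It had 27 reads in T6 (2.02 CPM), 29 in T10 (2.16 CPM), 208 in T6-12K (20.9 CPM) and 7 in T10-12A (0.828 CPM), and was listed at 0 in TAD, T10-12K and T6-12A. T6-12K was 9.67-fold above T10 (6.54 to 14.8) and 10.4-fold above T6. TAD, at 0, could hold up to 3.07 CPM, and against that level T6-12K was at least 6.82-fold higher. T10 and T6 did not differ beyond counting error (1.07-fold, 0.612 to 1.88), and T6 was 2.44-fold above T10-12A (1.04 to 6.64).

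miR-429-3p was the most abundant of the 5 in every library except T6-12K, where miR-141-3p exceeded it. Uncultured testis gave 671 reads in T6 (50.2 CPM), 1525 in T10 (114 CPM) and 306 in TAD (188 CPM). The cultures gave 965 reads in T6-12K (97.1 CPM), 1341 in T10-12K (190 CPM), 1754 in T6-12A (163 CPM) and 2401 in T10-12A (284 CPM). T6 was lowest, T6-12K next, and T10-12A highest, 1.5-fold above T10-12K (1.40 to 1.60). T10-12K and TAD did not differ beyond counting error (1.01-fold, 0.890 to 1.15), and every other pair of neighbours in the order did.

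miR-200b-3p varied least, 3.43-fold from its lowest to its highest library. Uncultured testis gave 537 reads in T6 (40.2 CPM), 796 in T10 (59.4 CPM) and 40 in TAD (24.6 CPM). The cultures gave 480 reads in T6-12K (48.3 CPM), 546 in T10-12K (77.2 CPM), 633 in T6-12A (58.6 CPM) and 712 in T10-12A (84.2 CPM). TAD was lowest, 1.64-fold below T6 (1.19 to 2.32). The intervals between T10-12A and T10-12K and between T10 and T6-12A held 1.

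miR-200a-3p, of the same cluster, had 104 reads in T6 (7.78 CPM), 255 in T10 (19.0 CPM) and 42 in TAD (25.8 CPM). In culture it had 132 reads in T6-12K (13.3 CPM), 246 in T10-12K (34.8 CPM), 456 in T6-12A (42.2 CPM) and 273 in T10-12A (32.3 CPM). T6-12A was highest and T6 lowest, 5.43-fold apart, and T6-12K was next to lowest. From T10-12K through T10-12A and TAD to T10 no pair of neighbours differed beyond counting error.

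**Figure D1:**
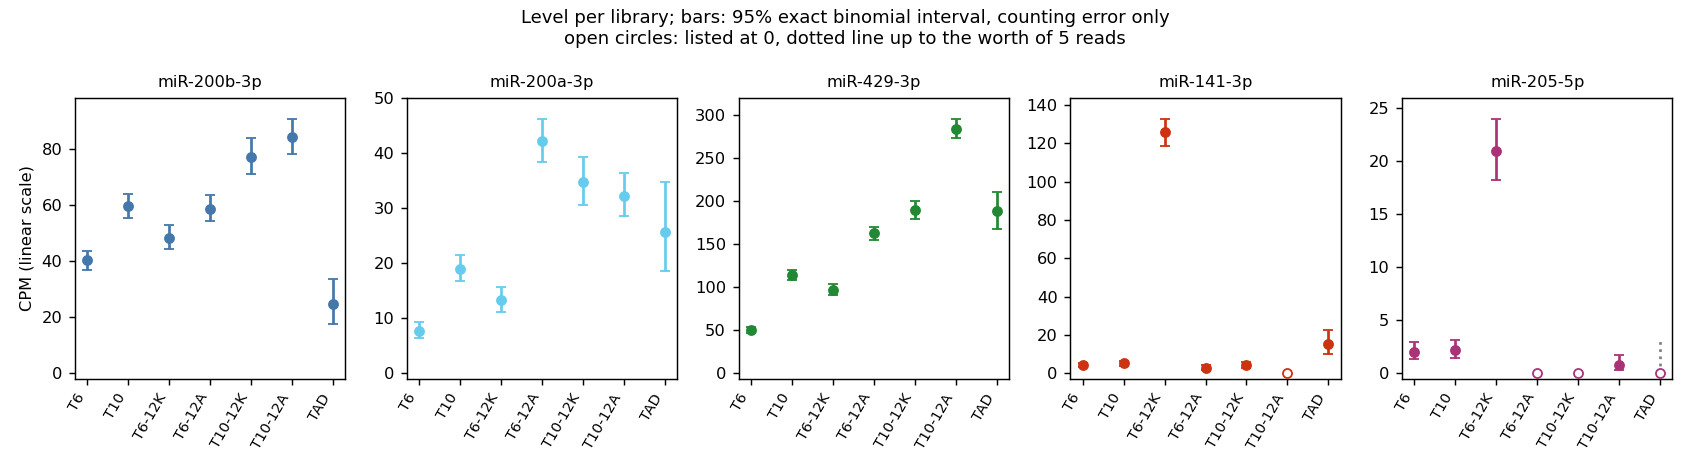
Level of each of the 5 miRNAs (CPM, linear axis) in the 7 libraries, 1 library per condition. Points are the values, bars 95% exact binomial intervals for counting error only, and open circles values listed at 0, with a dotted line up to the worth of 5 reads. miR-141-3p (126 CPM) and miR-205-5p (20.9 CPM) stand far above the other libraries in T6-12K, whereas the 3 miRNAs of the chromosome 4 cluster do not.

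The 5 together reached 104 CPM in T6, 199.7 CPM in T10 and 254 CPM in TAD, and among the cultures 305 CPM in T6-12K, 306 CPM in T10-12K, 266 CPM in T6-12A and 401 CPM in T10-12A. The sum in T6-12K was therefore within the range of the other libraries in CPM, although its make-up was not. The chromosome 4 cluster alone gave 159 CPM in T6-12K, below T10 (192.3 CPM), T6-12A (263 CPM), T10-12K (301 CPM), T10-12A (401 CPM) and TAD (238 CPM) and above T6 (98.2 CPM). By median-of-ratios or trimmed-mean scaling, and in the values as deposited, the sum of the 5 was highest in T6-12K.

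**Figure D2:**
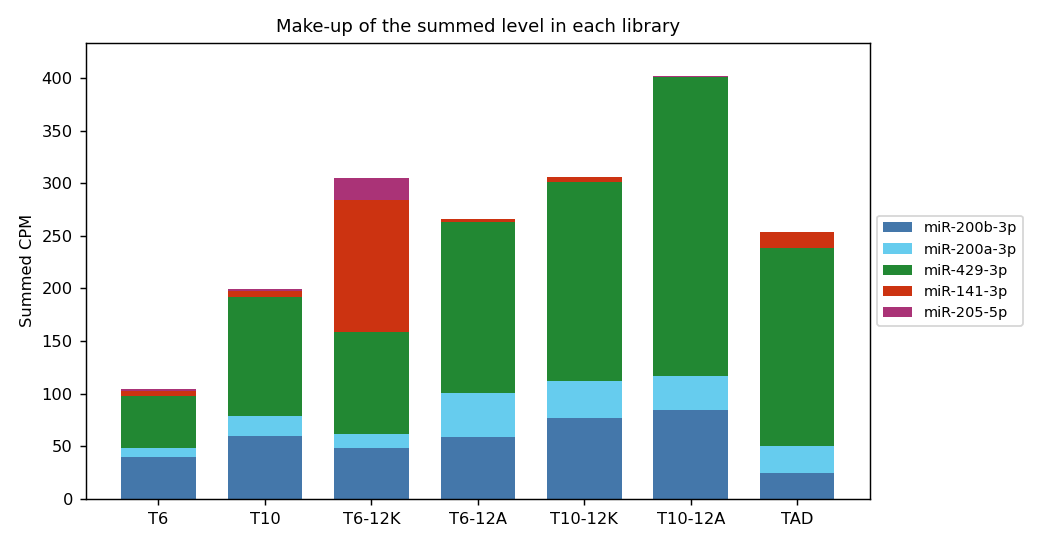
Summed level (CPM, bars starting at 0) of the 5 miRNAs in each of the 7 libraries, divided by miRNA. miR-141-3p and miR-205-5p fill a large part of the T6-12K bar, with 126 and 20.9 of 305 CPM, and a thin top segment or none in the others.

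Shares of reads between members of 1 library do not depend on how the libraries were scaled. Among the reads of the AACACUG class, miR-141-3p made up 90.4% in T6-12K (88.8 to 91.9). Its share was 35.4% in T6, 21.5% in T10 and 37.3% in TAD (25.8 to 50.0), 11.2% in T10-12K and 6.56% in T6-12A, and miR-141-3p was listed at 0 beside 273 reads of miR-200a-3p in T10-12A. T6-12K was the only library in which miR-141-3p outnumbered miR-200a-3p. The AACACUG class took 48.8% of all miR-200 family reads in T6-12K (47.0 to 50.7) and between 8.06% and 17.0% in the other 6 libraries.

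Within the AAUACUG class, miR-429-3p made up 55.5% of reads in T6 (52.7 to 58.4), 65.7% in T10 and 88.4% in TAD (84.6 to 91.6). In culture it was 66.8% in T6-12K, 71.1% in T10-12K, 73.5% in T6-12A and 77.1% in T10-12A. The neighbours on chromosome 4 thus did not keep a fixed ratio. Its share was higher in each of the 4 cultures than in the testis of the age at which that culture began, with intervals that did not overlap. The share of miR-200a-3p among its reads and those of miR-200b-3p was 16.2% in T6 (13.5 to 19.3) and 41.9% in T6-12A (38.9 to 44.9). In T6-12K that share was 21.6% (18.4 to 25.0) and in TAD 51.2% (39.9 to 62.4).

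miR-141-3p and miR-205-5p ranked 1 and 2 of all listed miRNAs by the ratio of T6-12K to the highest other library. In all, 8 of 331 miRNAs (2.42%) were highest in T6-12K. miR-205-5p reached 50 reads in T6-12K alone and had 63 reads in the other 6 libraries together. The authors discarded miRNAs under 50 reads, so miR-205-5p may owe its place in the table to the library in which it was high, and its rank and its count among the members highest there are favoured to that extent. The table also held 5 miRNAs under 50 reads in every library, and how the minimum was applied is not given in the sources used here. After the 2 members came miR-196b-5p at 4.34-fold, miR-10a-5p at 3.95-fold, miR-6240 at 1.59-fold, miR-486b-5p at 1.54-fold, miR-486a-5p at 1.52-fold and miR-10b-5p at 1.05-fold. The other members had ranks within the body of the distribution, 52 for miR-200b-3p, 137 for miR-429-3p and 153 for miR-200a-3p. Under median-of-ratios scaling 44 of 331 miRNAs (13.3%) were highest in T6-12K and 46 (13.9%) lowest, and the members highest there numbered 2 under each scaling tried.

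**Figure D3:**
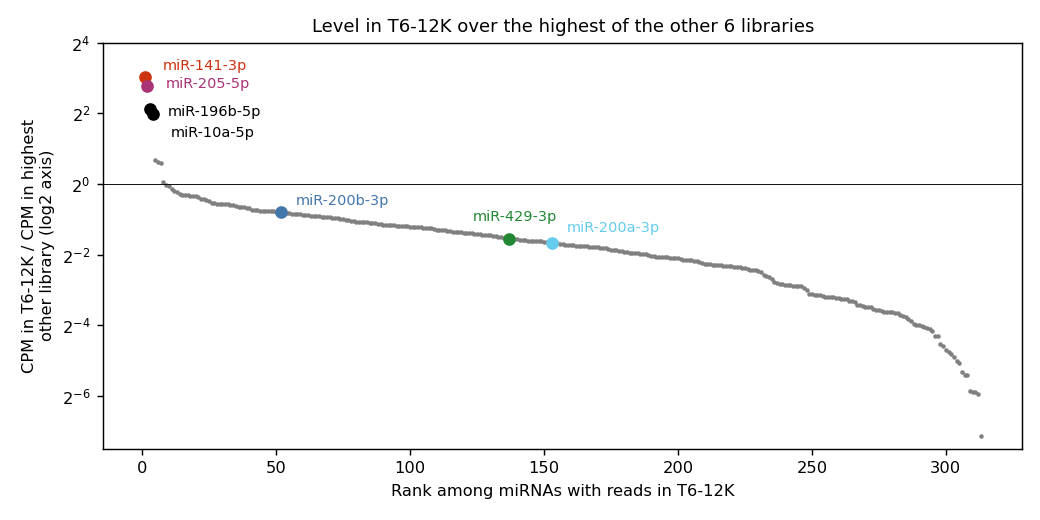
Ratio of CPM in T6-12K to that in the highest of the other 6 libraries (log2 axis) for the miRNAs with reads in T6-12K, ranked from the highest. Coloured points are the 5 members and black points miR-196b-5p and miR-10a-5p. miR-141-3p (8.18-fold) and miR-205-5p (at least 6.82-fold) head the ranking, and the members of the chromosome 4 cluster lie below 1.

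The miRNAs beside them in this ranking belong in part to the Hox clusters, whose miRNAs lie among the genes that pattern the body axis. miR-10a-5p had 28387 CPM in T6-12K and between 4137 and 7185 CPM in the others, and miR-196b-5p had 125 CPM in T6-12K and between 7.04 and 28.7 CPM in the others. Of 5 Hox cluster miRNAs listed, 3 were highest in T6-12K in CPM, namely miR-10a-5p, miR-10b-5p and miR-196b-5p, beside 2.42% of all miRNAs. With reads taken directly 2 were highest there, beside 3.02%. This list was chosen with earlier results of these data known, so the count is a description only. miR-196a-5p, which shares its seed family with miR-196b-5p, was at 67.2 CPM in T6-12K and at 170 CPM in T6.

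Other epithelial miRNAs gave counts near those of all miRNAs. Of 11 listed, 0 were highest in T6-12K in CPM, beside 2.42% of all miRNAs, and 4 were lowest, beside 32.3%, so that the counts show nothing particular to them. Their median log2 ratio of T6-12K to T6 was -0.48, above the median of -1.21 over all miRNAs, and their sum was 8505 CPM there against 8150 CPM in T6-12A and 33054 CPM in TAD. miR-203-3p, which is abundant in skin epithelium like miR-205-5p, had 51.1 CPM in T6-12K and between 73.8 and 328 CPM in the others. miR-375-3p, abundant in neuroendocrine cells, had 210 CPM in T6-12K, above T6 (99.8 CPM) and T10 (86.7 CPM) and below T6-12A (455 CPM), T10-12K (778 CPM), T10-12A (552 CPM) and TAD (9015 CPM). Of 10 miRNAs of mesenchymal cells, such as miR-143-3p and miR-199a-3p, 0 were highest and 0 lowest in T6-12K in CPM. Under median-of-ratios scaling, 0 of the 11 epithelial miRNAs were lowest in T6-12K, beside 13.9% of all miRNAs, and 7 of the 10 mesenchymal miRNAs were highest there, beside 13.3%, with the same counts under trimmed-mean scaling. The part that the low gonad and germ cell miRNAs of T6-12K, or a difference in which cells this library held, had in the levels of miR-141-3p and miR-205-5p was not tested.

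**Figure D4:**
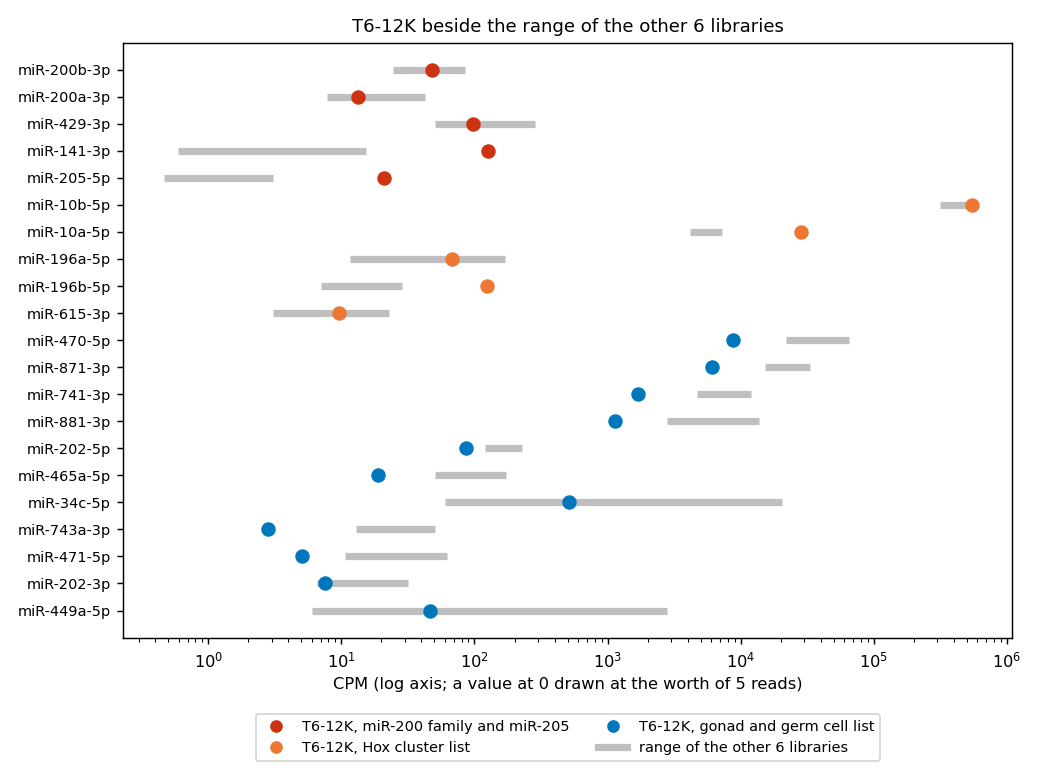
Level in T6-12K (coloured points, CPM on a log axis) and the range of the other 6 libraries (grey bars) for the 5 members, 5 Hox cluster miRNAs and 11 gonad and germ cell miRNAs. miR-141-3p, miR-205-5p, miR-10a-5p and miR-196b-5p lie right of the grey bars, and 8 of the 11 gonad and germ cell miRNAs lie left of them. miR-10b-5p also lies right of its bar, by little (544136 CPM against 520447 CPM in T6-12A).

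Over the 7 libraries, Pearson correlations of log2(CPM + 1) are given as a description, since the libraries differ in depth and 1 of them can set the value. With miR-141-3p the highest were miR-10a-5p (r = 0.890), miR-196b-5p (0.841), miR-133a-3p (0.691), miR-205-5p (0.689) and miR-486b-5p (0.667). With miR-205-5p they were miR-196b-5p (0.866), miR-486b-5p (0.842), miR-486a-5p (0.841), miR-10a-5p (0.788) and miR-486a-3p (0.711). Without T6-12K, r between miR-141-3p and miR-205-5p was -0.20, and r between miR-205-5p and miR-10a-5p was -0.51. The likeness of the 2 members therefore rested on that library. By contrast, r between the members of the chromosome 4 cluster barely moved, from 0.895 with T6-12K to 0.889 without it for miR-429-3p and miR-200a-3p, from 0.409 to 0.407 for miR-200a-3p and miR-200b-3p, and from 0.371 to 0.362 for miR-429-3p and miR-200b-3p. Over these libraries, r within the cluster was thus high for 1 pair of 3, and the pair of closest neighbours was not that pair. TAD, the shallowest library, was not left out in turn. There miR-200b-3p had its lowest level (40 reads, 24.6 CPM) while miR-429-3p was at 188 CPM. The lower r of the pairs with miR-200b-3p may therefore rest on TAD, and no lack of shared variation within the cluster can be read from them.

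Before culture, T10 was compared with T6 to show the change over the first days of spermatogenesis in vivo. miR-429-3p was 2.27-fold higher at 10.5 dpp (log2 ratio 1.18, 1.05 to 1.31) and miR-200a-3p 2.45-fold higher (1.29, 0.96 to 1.63). miR-200b-3p was 1.48-fold higher (0.56, 0.40 to 0.72). These 3 were above the median of all listed miRNAs, which was -0.06. For miR-141-3p (0.29, -0.23 to 0.82) and miR-205-5p (0.10, -0.71 to 0.91) the interval held 0. A 2-fold excess was met by 2 of 5 members, beside 11.0% of the miRNAs compared, and 2-fold lower 0 of 5, beside 4.29%.

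In the 4 cultures, the chromosome 4 cluster stood above its starting level in CPM while most miRNAs stood below it. The medians of all listed miRNAs were -1.21 in T6-12K and -0.63 in T6-12A against T6, and -0.76 in T10-12K and -0.78 in T10-12A against T10, on the log2 scale. miR-429-3p, miR-200b-3p and miR-200a-3p were higher in CPM than their own start in all 4 cultures, which held for 50 of the 331 miRNAs (15.1%). The 3 kept this under every scaling tried except reads taken directly. The share of all miRNAs that did so was 25.1% by median-of-ratios and 29.6% by trimmed-mean scaling. It was 16.9% without miR-10b-5p in the totals and 12.4% as deposited. With reads taken directly this held for 0 of the 3, beside 6.95% of all miRNAs. Each start was used for 2 cultures, so these 4 comparisons are not independent.

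For T6-12A against T6, the ratio was 3.24-fold for miR-429-3p (log2 ratio 1.69, 1.57 to 1.82), 5.43-fold for miR-200a-3p (2.44, 2.13 to 2.76) and 1.46-fold for miR-200b-3p (0.55, 0.38 to 0.71). From the highest ratio they ranked 28, 15 and 59 of 330. The interval of miR-141-3p held 0 (-0.52, -1.20 to 0.12), and miR-205-5p was at least 4.36-fold lower. So 2 of 5 members were at least 2-fold higher, beside 12.4% of miRNAs, and 1 of 5 lower, beside 37.9%.

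For T6-12K against T6, miR-141-3p was 29.5-fold higher (log2 ratio 4.88, 4.50 to 5.29) and miR-205-5p 10.4-fold higher (3.37, 2.79 to 4.01), ranks 3 and 7 of 329. The cluster was less than 2-fold above T6, with log2 ratios of 0.95 for miR-429-3p, 0.77 for miR-200a-3p and 0.27 for miR-200b-3p, the last of which was -0.16 with reads taken directly. Relative to the median, these too were high, at ranks 37, 41 and 53. Of the 5 members, 2 were at least 2-fold higher, beside 10.9% of miRNAs, and 0 were at least 2-fold lower, beside 57.1%. The rank of miR-205-5p and its place in this count are favoured, since it may owe its place in the table to T6-12K. Median-of-ratios scaling moved the median of the 308 miRNAs with reads in both libraries from -1.15 to -0.16, and under it all 5 members were at least 2-fold higher, beside 20.1% of miRNAs.

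For the cultures started at 10.5 dpp, T10-12A against T10 gave 2.50-fold for miR-429-3p (log2 ratio 1.32, 1.23 to 1.41), 1.70-fold for miR-200a-3p (0.76, 0.51 to 1.01) and 1.42-fold for miR-200b-3p (0.50, 0.36 to 0.65). With reads taken directly the last was -0.16. miR-141-3p was at least 8.83-fold lower, and miR-205-5p 2.61-fold lower (-1.39, -2.82 to -0.16). Among the 5, 1 was at least 2-fold higher, beside 10.6% of miRNAs, and 2 were lower, beside 41.4%, a share near the background.

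T10-12K against T10 gave 1.67-fold for miR-429-3p (log2 ratio 0.74, 0.63 to 0.84), 1.83-fold for miR-200a-3p (0.87, 0.61 to 1.13) and 1.30-fold for miR-200b-3p (0.38, 0.22 to 0.54). With reads taken directly these were -0.19, -0.052 and -0.54. The interval of miR-141-3p held 0 (-0.25, -0.91 to 0.38), and miR-205-5p was at least 3.06-fold lower. For miR-141-3p the log2 ratio was 0.30 by median-of-ratios and 0.51 by trimmed-mean scaling. The members 2-fold higher numbered 0 of 5, beside 8.21% of miRNAs, and those lower 1 of 5, beside 40.1%. An excess of miR-141-3p and miR-205-5p like that in the KSR culture of 6.5 dpp explants was thus not seen in the KSR culture of 10.5 dpp explants.

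Between supplements, T6-12A was compared with T6-12K, and miR-205-5p (at least 45.2-fold lower) and miR-141-3p (42.4-fold lower, log2 ratio -5.41, -5.96 to -4.90) had the 2 lowest ratios of 321 miRNAs. miR-200a-3p was 3.18-fold higher (1.67, 1.39 to 1.96) and miR-429-3p 1.67-fold higher (0.74, 0.63 to 0.86), beside a median of 0.64. miR-200b-3p was 1.21-fold higher in CPM (0.28, 0.11 to 0.45) and lower by median-of-ratios (-0.28) or trimmed-mean (-0.19) scaling. At least 2-fold higher was 1 of 5 members, beside 27.4% of miRNAs, and lower were 2 of 5, beside 5.92%. miR-205-5p reached 50 reads in T6-12K alone and may owe its place in the table to that library. Its rank and its place in the count of members lower are favoured to that extent.

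From 10.5 dpp, T10-12A against T10-12K gave smaller differences. miR-429-3p was 1.5-fold higher with AlbuMAX I (log2 ratio 0.58, 0.49 to 0.68), and the intervals of miR-200b-3p (0.13, -0.04 to 0.29) and miR-200a-3p (-0.11, -0.36 to 0.15) held 0. With reads taken directly the log2 ratio of miR-200a-3p was 0.15. miR-141-3p was at least 7.41-fold lower, and miR-205-5p had 7 reads in T10-12A and was listed at 0 in T10-12K. At least 2-fold higher were 0 of 5 members, beside 5.64% of miRNAs, and lower 1 of 5, beside 5.64%.

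Between starting ages, T10-12K against T6-12K placed miR-205-5p (at least 29.6-fold lower) and miR-141-3p (28.7-fold lower, log2 ratio -4.84, -5.41 to -4.33) last of 316 miRNAs. The cluster was higher, with 2.62-fold for miR-200a-3p, 1.95-fold for miR-429-3p and 1.60-fold for miR-200b-3p, beside a median log2 ratio of 0.48. At least 2-fold higher was 1 of 5, beside 23.4% of miRNAs, and lower were 2 of 5, beside 6.33%. The rank of miR-205-5p and its place in this count are again favoured, since it may owe its place in the table to T6-12K. In T10-12A against T6-12A, without the T6-12K library, miR-429-3p was 1.75-fold and miR-200b-3p 1.44-fold higher, miR-200a-3p was lower (-0.39, -0.61 to -0.17), and miR-141-3p was at least 5.01-fold lower. There 0 of 5 were at least 2-fold higher, beside 7.41% of miRNAs, and 1 of 5 lower, beside 9.26%.

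In the adult, TAD was set against the mean CPM of T6 and T10. miR-141-3p was 3.23-fold higher (log2 ratio 1.69, 1.01 to 2.32), miR-429-3p 2.29-fold higher (1.20, 1.02 to 1.37) and miR-200a-3p 1.92-fold higher (0.94, 0.45 to 1.41), although with reads taken directly the log2 ratios were -1.34, -1.84 and -2.10. miR-200b-3p was 2.03-fold lower (-1.02, -1.51 to -0.57), so that members of 1 cluster differed in direction. miR-205-5p was listed at 0 in TAD, and at this depth no difference from T6 and T10 was detectable. At least 2-fold higher were 2 of 5, beside 20.8% of miRNAs, and lower 1 of 5, beside 36.3%.

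**Figure D5:**
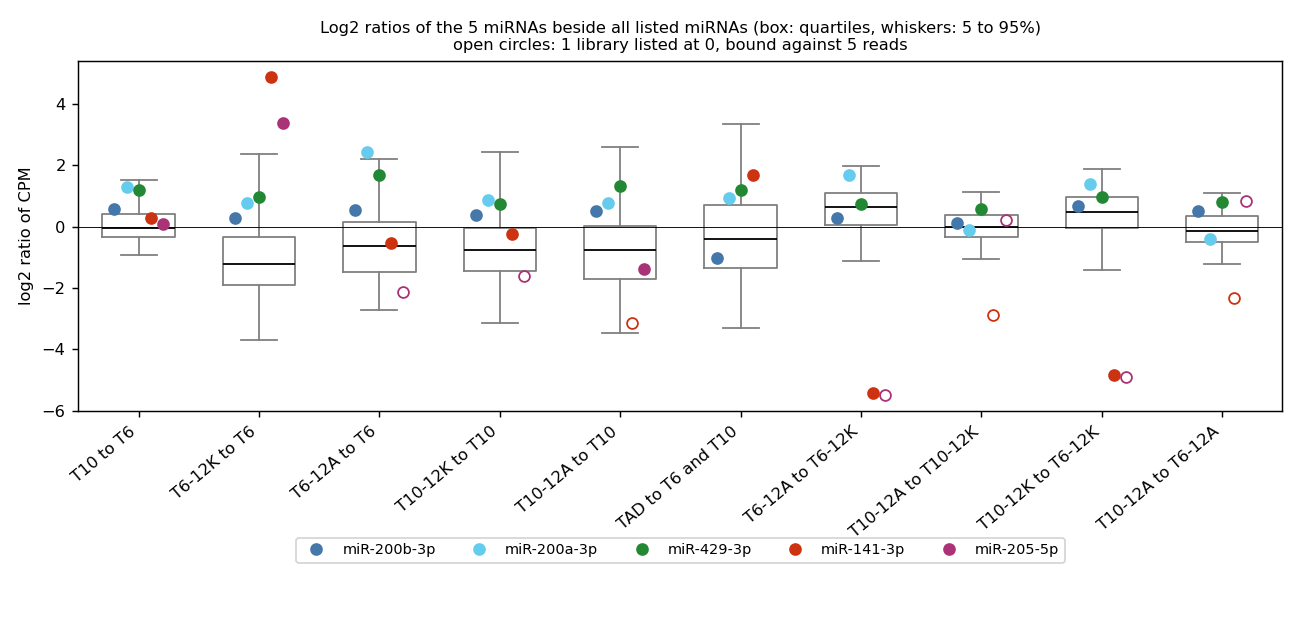
Log2 ratio of CPM in 10 comparisons for the 5 members (coloured points) beside all listed miRNAs compared (box for the quartiles, line for the median, whiskers from 5 to 95%). Open circles are bounds, with 1 library listed at 0 and set to the worth of 5 reads. miR-141-3p (4.88) and miR-205-5p (3.37) lie above the whiskers in T6-12K to T6 and below them in both comparisons with T6-12K as the reference.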

How the data were processed

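The authors isolated RNA from cultured and uncultured testes, sequenced small RNAs with Illumina chemistry, trimmed adaptors, checked reads with FastQC, aligned them with Bowtie to mm10 and to miRBase 21, and discarded miRNAs under 50 reads. The submitters' processing notes also name HTSeq and DESeq. The deposited signal is 1 value per miRNA and library, equal to reads divided by 1 factor per library; how that factor was set is not given in the sources used here. The reads were recovered by dividing by the worth of 1 read, after which 100% of values below 10000 reads were whole within 0.005 deposited units. On simulated data of 35 libraries with 331 miRNAs, 100% of reads were recovered. In counts simulated apart from these, at a single pair of means and equal depth, ratio intervals covered the true ratio in 95.2% of cases. Coverage at lower counts or unequal depth was not simulated. No count model was fitted. Levels are CPM over listed miRNAs, a value at 0 was set to 5 reads in ratios, and intervals are exact (binomial, or conditional binomial for ratios). The alternatives were median-of-ratios factors, trimmed-mean (TMM) factors (30% of M and 5% of A trimmed), reads taken directly, totals without miR-10b-5p, other floors (1 and 10 reads), a minimum of 50 reads and folds of 1.5 and 3.

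The miRNAs named are all members, the 5 most correlated with miR-141-3p and with miR-205-5p among those with at least 50 reads in 1 library, those with the largest ratio of T6-12K to the other libraries, and lists of other epithelial (11 of 12 names listed), Hox cluster (5), mesenchymal (10) and gonad and germ cell miRNAs (11). Members and lists were chosen with earlier results of these data known. miR-10b-5p, miR-203-3p, miR-375-3p and the other single list members were picked as examples after their values were seen. Positions and host transcripts came from RefSeq and GENCODE mouse release 21 on GRCm38.p6. The computations ran in Python 3.11.15 (scipy 1.17.1, matplotlib 3.10.9, pandas 2.3.3, numpy 2.4.6).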

Additional observations from a re-analysis of the deposited data

Results flagged for a closer look

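In CPM, the difference between culture and start, or between supplements, had opposite signs at 6.5 and 10.5 dpp for 3 miRNAs. None of these differences was tested, because each condition was 1 library. For miR-141-3p, the log2 ratio of the KSR culture to its start was 4.88 at 6.5 dpp and -0.25 at 10.5 dpp, a difference of 5.13, and the second interval held 0. By median-of-ratios (0.30) and trimmed-mean (0.51) scaling the 10.5 dpp ratio was positive, so the signs were then the same. For miR-205-5p it was 3.37 at 6.5 dpp and at most -1.62 at 10.5 dpp, where the culture was listed at 0, a difference of 4.99 or more. The ratio of AlbuMAX I to KSR for miR-200a-3p was 1.67 at 6.5 dpp and -0.11 at 10.5 dpp, a difference of 1.78, and the second interval held 0. With reads taken directly the 10.5 dpp ratio was 0.15, of the same sign as at 6.5 dpp. For miR-205-5p the ratio of AlbuMAX I to KSR was at most -5.50 at 6.5 dpp and, with the value at 0 set to 5 reads, 0.23 at 10.5 dpp, a difference of -5.73. The 10.5 dpp value rests on 7 reads in T10-12A against a listed 0 in T10-12K that may hide up to 4 reads. No interval was computed for it, so its sign is not established beyond counting error. All 4 rest on T6-12K.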

How the results depend on the processing

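The ratio of T6-12K to the highest other library was above 1 for miR-141-3p and miR-205-5p under every scaling. For miR-141-3p the log2 ratio was 3.03 in CPM, 3.85 by median-of-ratios, 4.10 by TMM, 4.16 with reads taken directly and 4.02 in the values as deposited, an alternative chosen after seeing the data. For miR-205-5p the log2 ratio was 2.77 in CPM, a bound with TAD, listed at 0, set to 5 reads. Under the other scalings it was between 2.84 and 3.84, and with floors of 1 and 10 reads it was 3.27 and 1.77. The summed members were below the highest other library in CPM (-0.40), with reads taken directly (-0.16) and without miR-10b-5p in the totals (-0.28), and above it by median-of-ratios (0.048), by TMM (0.079) and as deposited (0.15).

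With reads taken directly, which assumes libraries of equal depth, the sign turned for miR-200b-3p in T6-12K to T6 (-0.16), T10-12K to T10 (-0.54) and T10-12A to T10 (-0.16), for miR-429-3p (-0.19) and miR-200a-3p (-0.052) in T10-12K to T10, and in TAD for miR-429-3p (-1.84), miR-200a-3p (-2.10) and miR-141-3p (-1.34). The members above their start in all 4 cultures, counted after seeing the data, then numbered 0 instead of 3, beside 6.95% of all miRNAs instead of 15.1%. For miR-200b-3p in T6-12A to T6-12K the sign turned by median-of-ratios (-0.28) and TMM (-0.19). Among ratios whose interval held 0, it turned for miR-141-3p in T10-12K to T10 by median-of-ratios (0.30) and TMM (0.51). It also turned by TMM for miR-141-3p in T6-12A to T6 (0.012) and miR-205-5p in T10 to T6 (-0.13). With reads taken directly it turned for miR-200a-3p in T10-12A to T10-12K (0.15).

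Counts of members at least 2-fold apart moved as follows, with the share of all miRNAs under the same alternative in parentheses. T10 to T6, higher, 2 became 1 by TMM (8.28%) and 0 at 3-fold (4.91%). T6-12K to T6, higher, 2 became 5 by median-of-ratios and TMM (20.1% each) and 4 without miR-10b-5p (12.8%), as deposited (13.4%) and at 1.5-fold (14.0%). T6-12A to T6, higher, 2 became 3 by TMM (18.8%). T10-12K to T10, higher, 0 became 2 by median-of-ratios (14.3%) and at 1.5-fold (12.5%) and 3 by TMM (18.5%), and lower, 1 became 0 by TMM (19.5%) and with a floor of 10 reads (39.5%) and 2 with reads taken directly (72.9%). T10-12A to T10, higher, 1 became 3 by median-of-ratios (16.0%) and TMM (20.5%), 0 with reads taken directly and at 3-fold (8.16% each) and 2 at 1.5-fold (14.8%), and lower, 2 became 1 by median-of-ratios (27.2%), by TMM (23.9%) and at 3-fold (26.9%). TAD, higher, 2 became 3 by median-of-ratios (23.0%), by TMM (22.4%) and at 1.5-fold (28.1%), 1 without miR-10b-5p (16.3%) and at 3-fold (12.4%), and 0 with reads taken directly (5.14%) and as deposited (10.3%), and lower, 1 became 0 by median-of-ratios (29.9%), by TMM (33.8%) and at 3-fold (21.1%), 2 with a floor of 1 read (40.5%) and 5 with reads taken directly (91.2%), which mirrors the background. T6-12A to T6-12K, higher, 1 became 2 at 1.5-fold (52.6%). T10-12A to T10-12K, higher, 0 became 1 with a floor of 1 read (6.90%). T10-12K to T6-12K, higher, 1 became 0 by median-of-ratios (13.9%), by TMM and with reads taken directly (13.6% each), as deposited and at 3-fold (11.4% each), and 3 at 1.5-fold (43.4%). T10-12A to T6-12A, higher, 0 became 1 with a floor of 1 read (8.02%) and 2 at 1.5-fold (15.7%). A minimum of 50 reads, applied to the members, lowered by 1 the count of members lower in T6-12A to T6, T10-12K to T10, T10-12A to T10-12K and T10-12A to T6-12A, each to 0, and in T10-12A to T10, to 1. The cause of these shifts was not tested, beyond the construction of the threshold, floor, filter and scaling. Reads taken directly carry the depth of each library, which was 1628770 reads in TAD and 13397407 in T10. In 173 cases, counts within 1.5 times the main count included, a main value kept its direction and its side of the threshold under an alternative, and values of single members (log2 ratios and correlations) moved in 148 cases, among them ratios whose interval held 0 and bounds that changed sign, and stayed close to the main value in 96. With a pseudocount of 10, r was 0.978 between miR-141-3p and miR-10a-5p and 0.925 between miR-205-5p and miR-196b-5p, and without T6-12K it was 0.58 and 0.46. Depth limited miR-205-5p, which had 50 reads in T6-12K alone, and TAD, in which 5 reads were worth 3.07 CPM. No paired analysis was possible because each condition was 1 library.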
